A study of Homo sapiens with 6 samples.

Results

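The untreated state of ARPE-19 cells was described from the control libraries of a study of cinobufagin, a bufadienolide steroid of toad venom. The libraries were those labelled as DMSO for 24 h, which make up 3 of the 6 libraries of the series, and the 3 cinobufagin libraries were not used. All the cells used here shared 1 line, the wild-type genotype given in the labels, DMEM with 10% fetal bovine serum, 37°C and 5% CO2, and a seeding in multiwell plates on the day before DMSO was added. DMSO is the solvent in which the compound was given, so these are solvent-treated cells and not cells without any addition. Total RNA was sequenced, and every gene entry with a numeric gene ID was read, which gave 17945 genes. Whether these were separate cultures is not stated in the labels, so the spread over the libraries may be technical. ARPE-19 is a single immortal line that arose spontaneously from the retinal pigment epithelium of a donor eye, and no passage number is given.

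The retinal pigment epithelium is the pigmented cell layer behind the photoreceptors. It recycles the retinoid of the visual pigments, takes up shed photoreceptor outer segments, carries glucose and lactate between blood and retina, and holds melanin in melanosomes. ARPE-19 cells grow readily and lose much of this program in ordinary culture, which is why the levels of its genes in a given experiment are of interest.

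Levels are given in FPKM, fragment numbers divided by transcript length and by the library's mapped total, which allow genes of different length to be set side by side within a library. The summed FPKM was 538039 to 560721 in the 3 libraries, with 14794 to 14896 genes above 0. The depth is unknown, since no read totals are given, and no counting interval can be attached to a low value. A gene was called expressed at 1 FPKM or more in all 3 libraries, and 11335 genes (63.2% of those read) met this, with a median level of 12.2 FPKM. Another 4370 genes were low, meaning above 0 in some library without meeting the rule, and 2240 genes (12.5%) were listed at 0 in all 3. At the top, 722 genes (4.02%) held at least 100 FPKM in every library. Of 38 genes that most cells use (the housekeeping list), 0 were at 0 in any library. Because the cells were measured in bulk, few cells with much RNA of a gene and many cells with little of it cannot be told apart at any level given here.

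The most abundant transcript among the genes read was S100A6, a small calcium-binding protein also called calcyclin. It was measured at 9495, 8886 and 8761 FPKM in replicates 1, 2 and 3. Its lowest library lay above the highest library of every other gene, and its mean of 9047 ± 393 FPKM (SD, n = 3) was 1.57 times that of the next gene. Mitochondrially encoded genes were not analysed here, so they have no place in this order. That gene was EEF1A1, the elongation factor that brings transfer RNA to the ribosome, with 5889, 5740 and 5679 FPKM. It also stood apart from the gene after it in all 3 libraries.

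Below these, neighbours in the order mostly could not be separated: 26 of the first 30 genes had library values that overlapped those of the next gene. GAPDH, the glycolytic dehydrogenase, followed with 5441, 4969 and 5124 FPKM. VIM, the intermediate filament protein vimentin, had 5072, 4868 and 4985 FPKM. The actin-binding thymosins came next, with 4931, 4903 and 4631 FPKM for TMSB4X and 5228, 4633 and 4465 FPKM for TMSB10. GAPDH ranked 3rd in each library, while VIM and the thymosins changed places between libraries. ACTG1, cytoplasmic gamma actin, averaged 4214 ± 162 FPKM, and FTH1, the iron-storing ferritin heavy chain, averaged 3071 ± 109 FPKM (SD, n = 3 each).

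Ribosomal protein genes filled 21 of the first 30 places and 57 of the first 100. RPS27 had 4593, 4596 and 4391 FPKM, RPS18 had 4613, 4407 and 4307 FPKM, and RPS29 had 4289.9, 3984 and 3728 FPKM. RPS2 averaged 3836 FPKM and RPL41 averaged 3076 FPKM. RPL26, RPL3, RPS20, RPL12, RPS12, RPL13A, RPS24, RPL7A, RPS3A, RPL17, RPL39, RPL9, RPLP0 and RPLP2 were also among them, at means between 2826 FPKM for RPL26 and 2339 FPKM for RPLP2. All 77 ribosomal protein genes read were expressed, at means of 77.2 to 4527 FPKM with a median of 1633 FPKM. Together they took 22.4% to 23.4% of the summed FPKM, the largest share of the 5 gene classes that were summed.

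**Figure D1:**
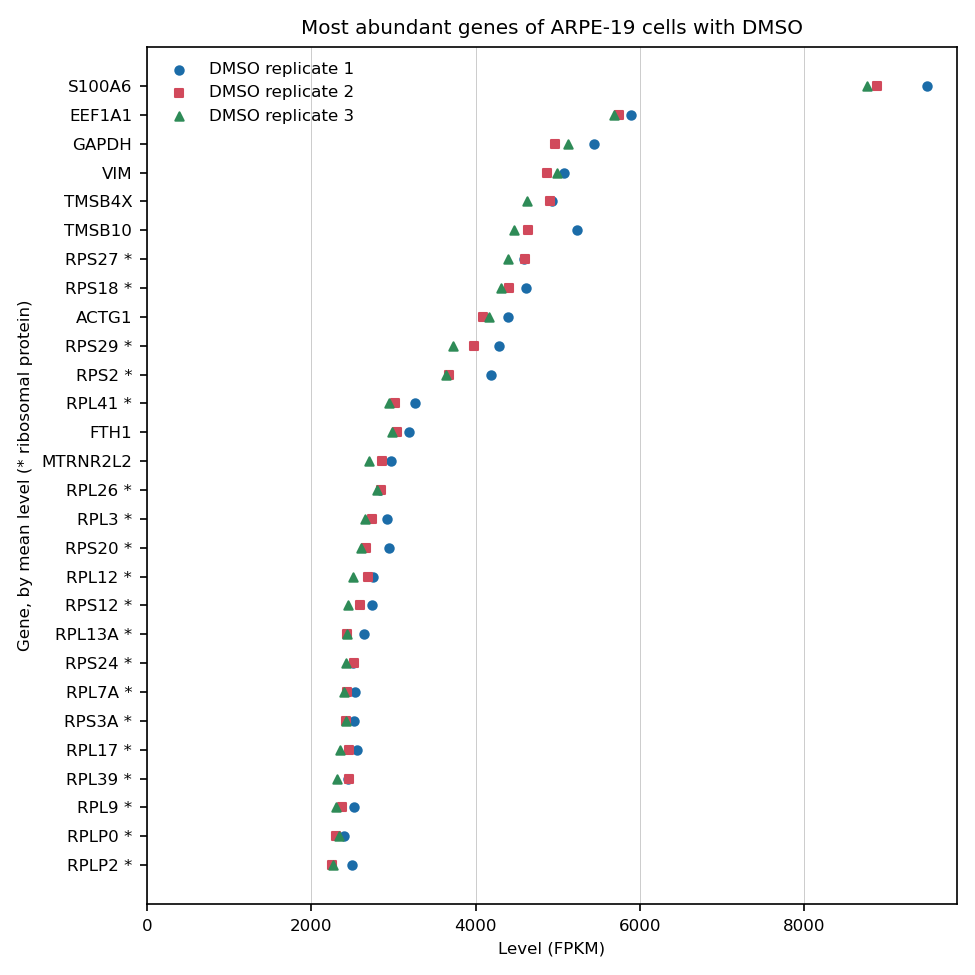
Level in FPKM (horizontal, from 0) of 28 of the 30 genes with the highest mean, from top to bottom, with 1 symbol for each of the 3 DMSO libraries and an asterisk on ribosomal protein genes. S100A6 at 8761 to 9495 FPKM is separated from the rest, EEF1A1 follows, and from GAPDH downwards the symbols of most neighbouring genes overlap.

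The remaining gene among the first 30 was MTRNR2L2, a nuclear copy of the mitochondrial 16S ribosomal RNA gene, with a mean of 2841 FPKM. Its level is uncertain, since reads of mitochondrial ribosomal RNA match it closely. The same caution applies to several ribosomal protein genes with processed pseudogenes. In 24 of the first 30 genes, more than 10% of 50-base windows of the main transcript also occur in another gene's transcript (GENCODE 29). The share was 86.0% for RPL9, 83.4% for RPS3A and 57.2% for EEF1A1. S100A6 and VIM shared no such window (0%).

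Other gene classes took smaller shares. The 23 actin cytoskeleton genes took 4.33% to 4.54% of the summed FPKM, the 14 translation factors 2.65% to 2.68%, and the 12 glycolysis genes 2.53% to 2.63%. Of 33 secreted and matrix genes read, 28 were expressed, beside 63.2% of all genes read, and the class took 1.54% to 1.60%. Its leader was TGFBI, an adhesion protein of the extracellular matrix, with 2159.7, 2009 and 2012 FPKM. Outside these classes, CTSD, the lysosomal protease cathepsin D that digests outer segments in the pigment epithelium, had 2235, 2022 and 2224 FPKM. CTSD shares 60.6% of its windows with transcripts of other genes, so its level is uncertain in part. PSAP, the precursor of the lysosomal saposins, had 2154, 2061 and 2032 FPKM.

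Transcripts of ribosomal proteins and elongation factors are known to begin with a cytosine followed by pyrimidines, the terminal oligopyrimidine motif that ties their translation to growth signals. The RefSeq promoters (GRCh38.p14, 250 bases before to 50 after the start) were searched on the gene's strand for C followed by 5 bases that are each C or T, with the run lying within 4 bases before and 6 after the start. It was found in 45 of the 62 ribosomal protein genes with a promoter entry (72.6%), against 5.74% of all 14293 promoters. Of the 24 first-30 genes with an entry, 14 had it. Only 8148 of the 14293 promoters had a start within 50 bases of that of the gene's principal transcript. A run can therefore be missed where another start is used. Stretches of 30 bases around the start, from 10 before it, are shown for 5 abundant genes with the run and for RPS29, which lacks it in this window at a similar level. Capitals mark the pyrimidine run.
EEF1A1, chr6:73521013-73521042, minus strand: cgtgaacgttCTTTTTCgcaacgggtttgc
RPS27, chr1:153990752-153990781, plus strand: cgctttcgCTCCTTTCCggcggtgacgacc
RPS18, chr6:33272065-33272094, plus strand: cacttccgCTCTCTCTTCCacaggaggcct
RPL41, chr12:56116623-56116652, plus strand: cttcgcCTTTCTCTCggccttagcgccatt
RPL26, chr17:8383174-8383203, minus strand: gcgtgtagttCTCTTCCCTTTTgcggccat
RPS29, chr14:49598691-49598720, minus strand: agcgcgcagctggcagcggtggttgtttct

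A comparison of promoter base composition across all level classes was void, because fewer than 80% of the low genes (74.0%) and of the genes listed at 0 (72.4%) had a promoter entry. Among genes of at least 100 FPKM, where 83.4% had one, the mean ratio of observed to expected CpG was 0.841. Among the 10613 genes of 1 to under 100 FPKM it was 0.818, with 83.3% matched. The letters TATAA at the TATA box distance, from 35 to 19 bases before the start on the gene's strand, were present in 8.80% of promoters of the most abundant genes, 2.03% of those of the other expressed genes, 8.20% of those of low genes, 14.7% of those of genes listed at 0 and 5.14% of all, with the same limit on the low and silent classes. They were present in S100A6, TMSB10, RPS27, RPS18, EEF1A1 and RPLP0 among the 24 first-30 genes with an entry.

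The labels name an epithelial line, and its genes were checked against 5 lists of the pigment epithelium. Of 92 members read, 51 were expressed (55.4%), which is below the 63.2% of all genes read. In 8 lists of other cell types (photoreceptor, neuron, glia, endothelium, blood and immune, muscle, liver and pancreas, pluripotency and germ line) 11 of 104 members were expressed (10.6%). Reads of genes that overlap on opposite strands cannot be told apart without a known strand setting. Among others, this touches GPR143, PMEL, RAB27A, PAX6, SLC16A3, CLCN2, CA9, TIMP3, CRB2 and ACTA2. The median level was 1.93 FPKM over the pigment epithelium lists, 0.0167 FPKM over the other cell type lists and 4.67 FPKM over all genes.

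The retinoid list was led by dehydrogenases and reductases of retinol and retinal, while the isomerase of the visual cycle was near 0. Of 20 genes read, 8 were expressed (40%, beside 63.2% of all genes read), 8 were low and 4 were listed at 0. ALDH1A3, a dehydrogenase that makes retinoic acid, had 287, 278 and 269 FPKM and ranked 248th of all genes. DHRS3, a reductase that turns retinal back to retinol, had 83.6, 72.1 and 74.8 FPKM. RDH10, which oxidises retinol to retinal, had 37.4, 41.7 and 40.8 FPKM, but it overlaps the abundant RPL7 (mean 1623 FPKM) on the opposite strand, so its level is uncertain. These 3 did not overlap in level, and all act on retinal or retinol in many tissues.

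Lower in the same list was RDH11, another retinol dehydrogenase, with a mean of 27.0 ± 0.74 FPKM (SD, n = 3). CYP26B1, which degrades retinoic acid, averaged 6.70 ± 0.20 FPKM, and CRABP2, which carries retinoic acid to the nucleus, 6.35 ± 1.0 FPKM (SD, n = 3 each). RDH5, the 11-cis retinol dehydrogenase of the pigment epithelium, averaged 4.24 FPKM, with 54.3% of its 50-base windows shared with transcripts of another gene. RPE65, the isomerase that defines the visual cycle, was at 0, 0 and 0.03 FPKM. RGR, an opsin of the same cells, was at 0.03, 0 and 0 FPKM, and RLBP1, the 11-cis retinal carrier, at 0.17, 0.26 and 0.18 FPKM.

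LRAT, which esterifies retinol, stood at the threshold with 1.06, 1.08 and 0.91 FPKM. STRA6, the receptor for retinol-binding protein, averaged 0.163 FPKM. TTR (transthyretin), CRABP1, ALDH1A2 and CYP26C1 were listed at 0 in all 3 libraries. Of the retinoic acid enzymes in the list, ALDH1A3 and CYP26B1 were thus expressed, while ALDH1A1 averaged 1.07 FPKM without meeting the rule and CYP26A1 averaged 0.02 FPKM. BEST1, the chloride channel of the basal membrane, had 1.21, 0.92 and 1.5 FPKM, but it lies against the abundant FTH1 on the opposite strand, and without a known strand setting its reads cannot be told from those of FTH1. The defining visual cycle genes therefore went against a mature pigment epithelium label at the RNA level.

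The pigment list held 1 abundant gene, GPNMB, with the other members between 0.03 and 40.2 FPKM. Of 13 genes read, 8 were expressed (61.5%, beside 63.2% of all genes read), 5 were low and 0 were listed at 0. GPNMB, a glycoprotein of melanosomes and lysosomes, had 857, 896 and 892 FPKM, which ranked 93rd of all genes and was most of the list's sum of 945 to 984 FPKM. GPR143, the melanosomal receptor mutated in ocular albinism, had 39.5, 38.4 and 42.8 FPKM. RAB38, a GTPase of melanosome traffic, had 15.8, 14.2 and 15.6 FPKM.

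TYRP1, a melanin enzyme, followed with 9.20, 10.3 and 10.5 FPKM, RAB27A, which tethers melanosomes for transport, with a mean of 9.56 FPKM, and SLC45A2, a melanosomal transporter, with 7.21, 6.84 and 7.09 FPKM. PMEL, the fibril protein of the melanosome, averaged 2.04 FPKM, far under GPNMB, its relative in sequence. TYR, the tyrosinase that makes the first step of melanin, was at the threshold with 1.16, 0.88 and 1.05 FPKM. DCT, the dopachrome tautomerase, was at 0, 0.06 and 0.03 FPKM, and MLANA, a melanosome membrane protein, at 0.14, 0.11 and 0.14 FPKM. SLC24A5, a melanosomal ion exchanger, averaged 0.177 FPKM, and the cation channel TRPM1 averaged 0.667 FPKM.

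MITF, the basic helix-loop-helix factor of pigment cells, is known to bind the letters CATGTG. Promoters were searched for CATGTG on both strands, where the opposite strand reads CACATG. These letters were in 7 of the 10 pigment genes with a promoter entry (10 of 13 genes, or 76.9%, which is under 80%, so the share is a count of those 10 only) and in 7.82% of all promoters. The 7 were GPNMB, GPR143, TYRP1, TYR, DCT, TRPM1 and SLC24A5, so genes of high level and genes near 0 both had them. Windows of 30 bases with the letters in capitals are shown for the highest 3 of the 7 and for TYR.
GPNMB, chr7:23246640-23246669, plus strand: gtgagtcataagCACATGagttgtaagagg
GPR143, chrX:9765891-9765920, minus strand: agaggcccagggCACATGatgccgccccca
TYRP1, chr9:12693229-12693258, plus strand: ttggaagggaatCATGTGctgatcaagtcc
TYR, chr11:89177759-89177788, plus strand: agaaaagtcagtCATGTGcttttcagagga
The letters begin 123 bases before the start in GPNMB (-123), 61 before it in GPR143 (-61), 144 before it in TYRP1 (-144) and 104 before it in TYR (-104), and a match of letters is no measure of binding.

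The transcription factor list had a median of 0.9 FPKM, with its expressed members led by PAX6, OTX2 and MITF. Of 21 genes read, 9 were expressed (42.9%, beside 63.2% of all genes read), 8 were low and 4 were listed at 0. PAX6, the paired-box factor of eye development, had 58.3, 62.8 and 59.4 FPKM. OTX2, the homeodomain factor required for pigment epithelium, had 48.2, 48.6 and 48.8 FPKM, and MITF had 42.7, 47.1 and 45.6 FPKM. PAX6 lay above both in all 3 libraries, and OTX2 lay above MITF.

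SOX9, a partner of MITF and OTX2 at pigment epithelium genes, averaged 26.5 ± 0.99 FPKM, and LHX2, a LIM homeodomain factor of the optic vesicle, 18.8 ± 0.36 FPKM (SD, n = 3 each). MEIS2 averaged 17.5 FPKM and SIX3, an early eye field factor, 15.8 FPKM. TFAP2C and TBX5 were listed at 0. RAX, the retinal progenitor factor, and CRX, the photoreceptor factor, averaged 0.0467 FPKM each. Other low members included OTX1 at a mean of 1.04 FPKM, TFAP2A at 0.9 FPKM, NR2E1 at 0.313 FPKM and TFEC at 0.133 FPKM. The list was thus split, with some factors of optic vesicle and pigment epithelium expressed and others low or at 0.

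Of 26 transport genes of the pigment epithelium, 15 were expressed (57.7%, beside 63.2% of all genes read). Another 10 were low and 1 was listed at 0. BSG, basigin, the chaperone that brings lactate carriers to the membrane, had 932, 904 and 945 FPKM and ranked 87th. SLC16A3, a lactate exporter of glycolytic cells, had 500.2, 445 and 473 FPKM. SLC2A1, the GLUT1 glucose carrier, had 312, 292 and 304 FPKM. The lactate carrier of the mature basal membrane, SLC16A8, was at 0.23, 0.26 and 0.57 FPKM instead.

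CA9, a carbonic anhydrase known to respond to low oxygen, had 197, 174 and 197 FPKM. EZR, the ezrin of apical microvilli, had 183, 176 and 168 FPKM, and EFEMP1, a fibulin of the basement membrane, had 157, 160.5 and 163 FPKM. CST3 averaged 159 FPKM, TIMP3 averaged 137 FPKM and VEGFA averaged 67.6 FPKM, all 3 being secreted products of the pigment epithelium. SERPINF1, the antiangiogenic factor PEDF, was far lower, with 4.82, 5.86 and 4.78 FPKM. Of the ion channels in the list, CLCN2, a chloride channel, was expressed at 2.16, 1.49 and 1.8 FPKM, TRPM3 averaged 0.353 FPKM, KCNJ13 averaged 0.0367 FPKM and CFTR averaged 0.00333 FPKM. LRP2, the endocytic receptor megalin, was listed at 0.

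The phagocytosis list had the highest share expressed of the 5 pigment epithelium lists. It was 11 of 12 genes (91.7%), beside 63.2% of all genes read. ANXA5, the annexin that binds exposed phosphatidylserine, had 651, 642 and 621 FPKM. The docking integrin was present on both sides, with ITGAV at 164, 195 and 200.1 FPKM and ITGB5 at 159, 146 and 157 FPKM. ITGAV was lowest in replicate 1, which was not the case for ITGB5. The bridging ligand MFGE8 averaged 132 ± 6.9 FPKM (SD, n = 3).

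Among the TAM receptors that trigger engulfment, AXL led with 141, 137 and 135 FPKM. TYRO3 had 5.68, 5.12 and 5.20 FPKM. MERTK, the receptor whose loss blocks outer segment uptake, was just above the threshold at 1.04, 1.21 and 1.25 FPKM. The ligand PROS1 averaged 95.6 FPKM, and the ligand GAS6 had 20.7, 18.2 and 21.0 FPKM. PROS1 shares 10.1% of its windows with transcripts of another gene. CD36, a scavenger receptor, averaged 0.393 FPKM and was the low member.

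**Figure D2:**
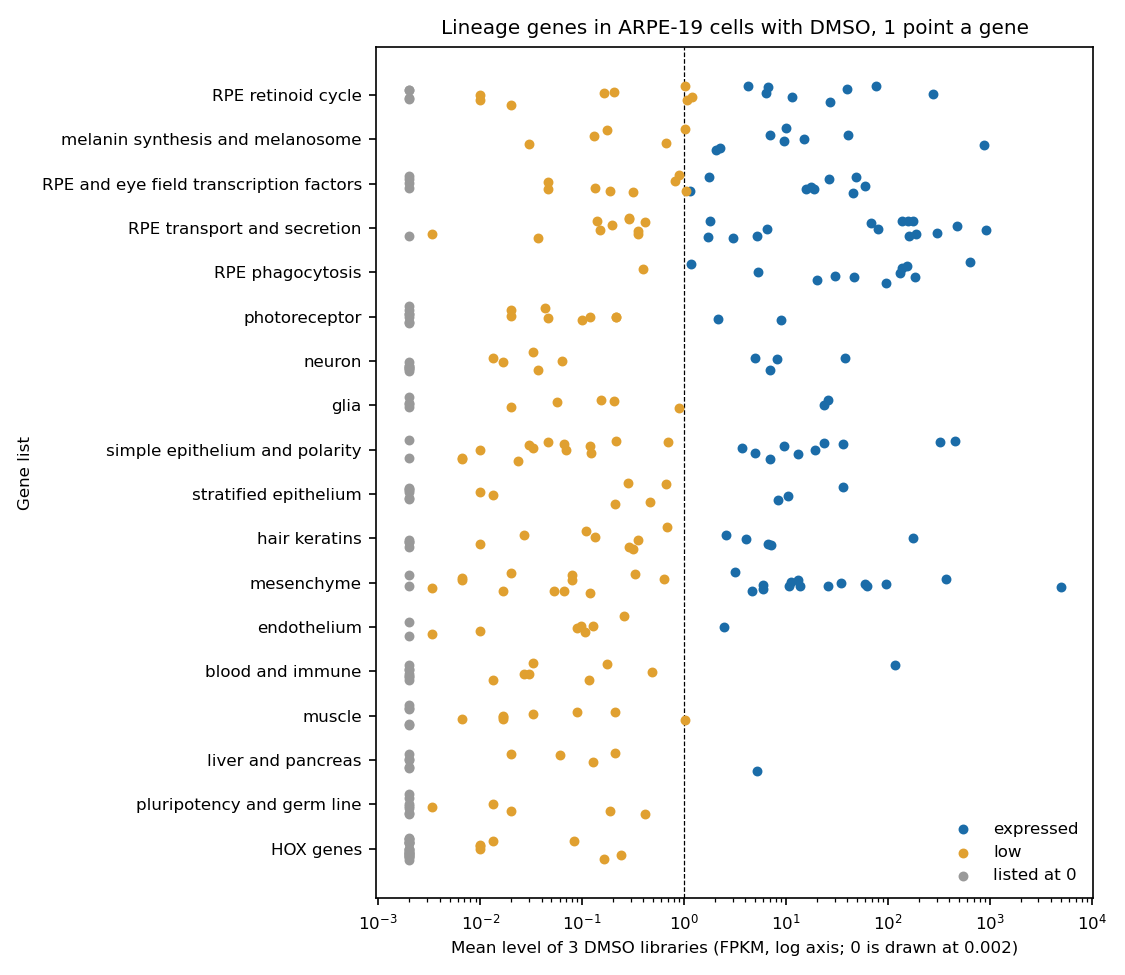
Mean level over the 3 DMSO libraries (horizontal, FPKM on a log axis, with 0 drawn at the far left) of each gene in 18 lineage lists, 1 point a gene, with blue for expressed, orange for low and grey for listed at 0, and the dashed line at 1 FPKM. The phagocytosis list lies almost wholly to the right of the line, and the HOX, muscle and pluripotency lists have no expressed member.

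Epithelial identity was incomplete. Of 25 genes of simple epithelium and polarity read, 10 were expressed (40%, beside 63.2% of all genes read), 13 were low and 2 were listed at 0. The simple keratin pair was abundant, with KRT8 at 485, 435 and 444 FPKM and KRT18 at 339, 316 and 316 FPKM. KRT8 and KRT18 share 39.7% and 31.8% of their windows with transcripts of other genes and lie against each other on opposite strands, so their levels are uncertain in part. CRB2, an apical polarity protein, averaged 36.2 FPKM, TJP1, the tight junction scaffold ZO-1, 23.7 FPKM, and CLDN1, a tight junction claudin, 19.5 FPKM. CDH1, the E-cadherin of adherens junctions, and GRHL2, an epithelial transcription factor, were listed at 0, and EPCAM averaged 0.03 FPKM. CLDN19, the claudin typical of human pigment epithelium, averaged 0.00667 FPKM.

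Some mesenchymal genes were expressed beside these keratins, 15 of 29, with 12 low and 2 listed at 0. That share of 51.7% is below the 63.2% of all genes read. After VIM the highest was SPARC, a matrix-binding glycoprotein, with 378, 368 and 362 FPKM. CDH2, the N-cadherin also found in native pigment epithelium, had 93.0, 95.9 and 97.6 FPKM, and CDH11, a mesenchymal cadherin, had 58.8, 62.9 and 58.1 FPKM. FN1, fibronectin, averaged 62.5 ± 0.59 FPKM, and ACTA2, smooth muscle actin, 34.8 ± 0.99 FPKM (SD, n = 3 each). The 4 fibrillar collagen genes in the list were all under 1 FPKM: COL1A1 had 0.63, 0.64 and 0.63 FPKM, COL1A2 averaged 0.00333 FPKM, COL3A1 averaged 0.02 FPKM and COL5A1 averaged 0.0167 FPKM. Of the type VI collagen chains COL6A1 was expressed, at 10.7, 10.3 and 11.4 FPKM, and COL6A2 averaged 0.0667 FPKM. SNAI2, a repressor of E-cadherin, and COL6A3 were listed at 0, while ZEB2, another such repressor, averaged 11.1 FPKM.

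Hair keratins, which normally build the hair shaft, contributed 1 gene of high level. KRT33B had 195, 166 and 173 FPKM, ranked 398th and averaged 178 ± 15 FPKM (SD, n = 3), far above every other hair keratin in each library. KRT34 had 6.84, 7.08 and 7.31 FPKM, KRT32 had 6.95, 6.29 and 6.87 FPKM, and KRT31 had 2.57, 2.41 and 2.80 FPKM. KRT86 averaged 4.05 FPKM, but it overlaps KRT7 and KRT81 and shares 39.2% of its windows, so its level is uncertain. Of the 17 genes read, 5 were expressed (29.4%, beside 63.2% of all genes read) and 8 were low. KRT39, KRT40, KRT82 and KRT84 were listed at 0. KRT33A, the close copy of KRT33B, averaged 0.11 FPKM, and 27.7% of the windows of KRT33B occur in transcripts of other genes, so assignment between such copies limits both values.

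The 4 type I hair keratins shown here lie in 1 cluster on chromosome 17 (KRT33A, KRT33B, KRT34 and KRT31), and their promoters carry the letters TATAA at the TATA box distance on the gene's strand. In all, 9 of 14 hair keratins with a promoter entry had it (64.3%), against 5.14% of all promoters. Bases from 40 before to 10 after the start are shown, with TATAA in capitals, because the 4 differ widely in level while sharing this feature.
KRT33B, chr17:41369804-41369853, minus strand: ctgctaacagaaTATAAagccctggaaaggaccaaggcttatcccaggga
KRT34, chr17:41382297-41382346, minus strand: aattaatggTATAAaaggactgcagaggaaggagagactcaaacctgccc
KRT31, chr17:41397599-41397648, minus strand: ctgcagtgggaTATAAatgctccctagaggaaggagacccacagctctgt
KRT33A, chr17:41350819-41350868, minus strand: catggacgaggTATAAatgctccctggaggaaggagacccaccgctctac

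Keratins and other genes of stratified epithelium were mostly not expressed. Of 15 genes read, 3 were expressed (20%, beside 63.2% of all genes read), 6 were low and 6 were listed at 0. KRT13, a keratin of internal stratified epithelia, had 39.7, 38.3 and 31.6 FPKM and was lowest in replicate 3. KRT10 averaged 10.5 FPKM and DSC3, a desmosomal cadherin, averaged 8.43 FPKM. The basal pair KRT5 and KRT14 was listed at 0, as were KRT1, KRT6A, KRT6B and KRT17. TP63, the master factor of that lineage, averaged 0.283 FPKM.

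Most members of the lists of other cell types were low or at 0, with some exceptions. In the photoreceptor list 2 of 17 genes were expressed, ROM1 at 8.95 FPKM, which overlaps EML3 on the other strand, and PDE6B at 2.16 FPKM. SAG, the rod arrestin, GNAT1, RCVRN, OPN1SW, GUCA1A and CNGB1 were listed at 0. In the neuron list 4 of 16 were expressed, namely TUBB3 at 38.3 FPKM, SYT1 at 8.08 FPKM, MAP2 at 6.90 FPKM and GAD1 at 4.97 FPKM. TUBB3 shares 89.4% of its windows with transcripts of another gene. SNAP25, STMN2, NEFL, NEFM, DCX and ELAVL4 were listed at 0.

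In the glia list GLUL, glutamine synthetase, had 25.6 FPKM and MBP had 23.8 FPKM, while AQP4, S100B, SLC1A3 and OLIG1 were listed at 0. In the blood and immune list 1 of 15 genes was expressed, the lysosomal protein CD68 at 118 FPKM, of which 92.6% of windows also occur in transcripts of other genes. PTPRC, the CD45 of all white cells, was listed at 0. ROBO4 at 2.46 FPKM was the expressed member among 10 endothelial genes, and SERPINA1 at 5.15 FPKM that among 10 liver and pancreas genes. No member of the muscle list (0 of 13) or the pluripotency and germ line list (0 of 12) was expressed.

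No HOX gene read was expressed; these genes give cells their position along the trunk. Of 39 HOX genes listed, 12 were not analysed here, and of the 27 read, 0 were expressed and 20 were listed at 0 in all 3 libraries. The highest was HOXA5 at 0.17, 0.38 and 0.17 FPKM, followed by HOXA6 at a mean of 0.163 FPKM. Both lie in the A cluster, in which 3 of the 20 genes at 0 also lie (HOXA7, HOXA10 and HOXA11).

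Large gene families were counted in the same way, with each median taken over all members read. Of 135 olfactory receptor genes read, 1 was expressed (0.741%) and 66 were listed at 0. None of 16 bitter taste receptors was expressed (0), although 15 of them were above 0 in some library, with a median of 0.183 FPKM. None of 7 beta defensins (0), 6 late cornified envelope genes (0) or 21 PRAME family genes (0) was expressed. Of 31 keratin-associated protein genes, 1 was expressed, KRTAP2-3 at 11.6 FPKM, a hair gene like KRT33B. By the same rule 37 of 38 proteasome subunits, all 77 mitochondrial ribosomal proteins and all 36 complex I subunits were expressed, at median levels of 63.9, 35.9 and 76.3 FPKM. Between these lay clustered protocadherins, with 10 of 53 expressed, and ZNF zinc finger genes, with 350 of 500 expressed (70%, beside 63.2% of all genes). The median over all 500 ZNF genes was 2.12 FPKM.

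Within gene families of related function, most of the transcript pool came from 1 member. Of 74 families listed, 71 had at least 2 members read, and in 69 of these the leading member was expressed. The leader lay above the second member without overlap of the library values in 67 of the 69 (97.1%). It was picked by its mean in these same libraries, so this count describes the order and tests nothing. In a family with 2 members read the leader holds at least 50% by definition. The leader held at least 90% of the family's summed FPKM in 19 families and under 50% in 9, and the median share was 71.8%. In these 69 families 214 of 354 members read were expressed (60.5%), beside 63.2% of all genes. The hemoglobins and the globins outside blood were the 2 families with no expressed leader.

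In the pyruvate kinase, phosphoglycerate mutase, enolase and aldolase families of glycolysis the ubiquitous or proliferative paralogs led. In phosphofructokinase PFKP led at 227 FPKM, with PFKL second at 89.3 FPKM. PKM, pyruvate kinase M, had a mean of 1402 FPKM, and its liver and red cell counterpart PKLR was listed at 0. PGAM1 averaged 916 FPKM against 0.15 FPKM for the muscle form PGAM2, ENO1 averaged 1933 FPKM against 142 FPKM for ENO2, and ALDOA averaged 1160.3 FPKM against 37.8 FPKM for ALDOC. Lactate dehydrogenase was shared, with LDHA at 1013, 971 and 975 FPKM and LDHB at 620.1, 627 and 603 FPKM. LDHA shares 10.1% of its windows with transcripts of other genes, PGAM1 43.1%, ALDOA 61.8% and LDHB 73.1%. The levels of PGAM1, ALDOA and LDHB are therefore less certain.

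Hexokinase, the first enzyme of the pathway, was not led by its common form. HKDC1, a hexokinase domain protein of restricted tissue range, led with 139, 142 and 147 FPKM. HK1, the common form, had 84.4, 79.9 and 77.8 FPKM, and HK2, the form of muscle and many tumours, had 15.4, 15.4 and 14.9 FPKM. HKDC1 thus held 58.1% to 61.2% of the family sum, and HK3 was listed at 0. Among facilitative glucose carriers SLC2A1 held 92.9% to 93.4% of the sum, and among the 4 monocarboxylate carriers SLC16A3 held 84.1% to 86.3%, with SLC16A1 second at 79.7 FPKM.

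Cytoskeletal families differed in how far they relied on 1 gene. VIM held 99.9% of the type III and IV intermediate filaments, with SYNM second at 4.51 FPKM. MYH9 held 95.7% of nonmuscle myosin heavy chain, at 543 FPKM against 24.1 FPKM for MYH10. Actin came from ACTG1 at 4397, 4087 and 4159 FPKM and ACTB at 2116, 1917 and 1825 FPKM, so gamma actin was 2.16 times beta actin in mean FPKM and above it in every library. Tropomyosin was spread over TPM1 at 652 FPKM, which held 46.4%, and TPM2 at 345 FPKM. In beta thymosins TMSB4X and TMSB10 overlapped, at mean shares of 50.2% for TMSB4X, and TMSB10 was the higher of the 2 in replicate 1.

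Of the alpha crystallins, small heat shock proteins of the lens, CRYAB was abundant and CRYAA was not. CRYAB had 1547, 1513 and 1421 FPKM and ranked 66th, while CRYAA was listed at 0, with 93.3% of its windows shared with transcripts of another gene. UCHL1, a ubiquitin hydrolase best known from neurons, had 593, 573 and 568 FPKM, and UCHL3 averaged 23.1 FPKM. GJA1, connexin 43, held 89.7% of the connexin sum at 216 FPKM, with 7 of the connexins read listed at 0. CTSD held 65.8% of the cathepsin sum, with CTSH second at 413 FPKM, though CTSD shares 60.6% of its windows with transcripts of other genes.

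Signalling receptors and ligands were also concentrated. FGFR1 held 98.3% of the FGF receptor sum at 25.1 FPKM, and FGFR2 was listed at 0. NOTCH2 held 93.8% of the Notch receptor sum at 42.0 FPKM, with NOTCH1 at 2.61 FPKM. TGFB2, the isoform of the eye's aqueous and vitreous, had 86.4, 96.4 and 91.4 FPKM against 27.5, 24.9 and 26.4 FPKM for TGFB1. PDGFC held 92.8% of the PDGF ligand sum. Retinoic acid receptors were less concentrated, with RARB at 24.0 FPKM, RARA at 12.7 FPKM and RARG at 9.41 FPKM.

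Other housekeeping choices followed the same scheme. IMPDH2, the proliferative form of the guanine nucleotide enzyme, had 234, 236 and 231 FPKM, and IMPDH1, the form found in photoreceptors, had 11.4, 12.6 and 12.5 FPKM. EEF1A2, the muscle and neuron counterpart of EEF1A1, averaged 0.17 FPKM. CALM2 held 81.8% of calmodulin, although its 3 genes encode the same protein. In AKT kinases AKT2 at 51.2, 50.4 and 49.97 FPKM and AKT1 at 52.7, 48.9 and 49.4 FPKM overlapped. The families without a dominant member included peroxiredoxin, where PRDX1 held 30.01%, and 14-3-3, where YWHAZ held 32.9%.

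**Figure D3:**
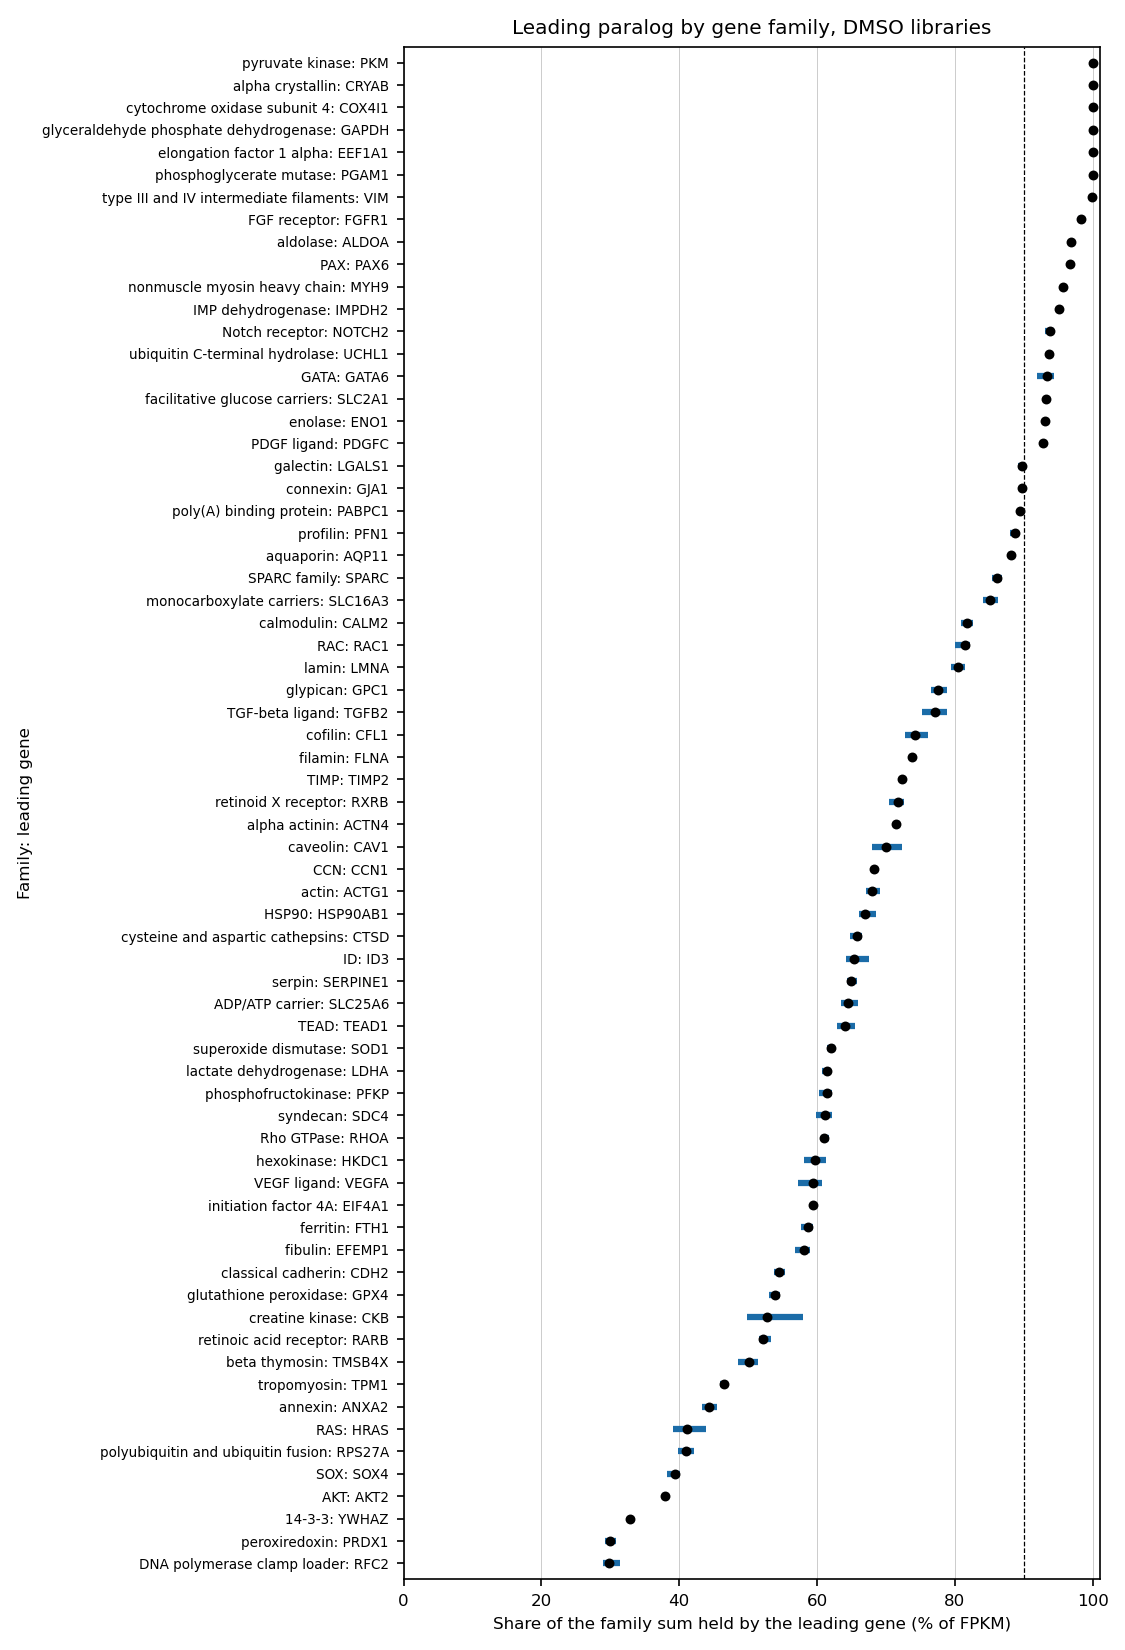
Share of the family's summed FPKM held by its leading gene (horizontal, %), for 68 of the 69 families with an expressed leader, ordered by share, with a black point for the share of the mean levels, a blue bar from the lowest to the highest library and a dashed line at 90%. In 18 of the families drawn the leader is past 90%, and the bars are short beside the differences between families, the widest being 8.18 percentage points.

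The 3 libraries were close to each other across genes. Across all genes, which are no independent replicates of each other, Pearson's r of log2(FPKM + 1) was 0.998 for each of the 3 pairs of libraries. Among 6422 genes with a mean of at least 10 FPKM the coefficient of variation (CV, the SD as a percentage of the mean) had a median of 4.48% and a 90th percentile of 9.24%. Without replicate 1 the median was 2.75%, a CV over 2 libraries that is not directly comparable with that over 3. Up to 1000 FPKM the CV over 3 libraries was smaller at higher levels. Its median was 24.8% between 0.1 and 1 FPKM, 10.7% between 1 and 3 FPKM and 3.47% between 300 and 1000 FPKM. Above that it was 4.34%. Levels under 1 FPKM, such as those of RPE65 or HOXA5, were therefore measured with far more spread than those of GPNMB or PAX6.

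Of the 6422 genes, 10 had a CV of at least 20%. The most variable was SURF2, a nucleolar protein, with 13.9, 8.95 and 9.10 FPKM (CV 26.4%). SNURF, which shares a transcript with SNRPN and is therefore uncertain, had 113, 86.3 and 67.0 FPKM (CV 26.1%). OCEL1 had 13.8, 8.50 and 9.93 FPKM, and TPGS1, a tubulin polyglutamylase subunit, had 17.0, 10.9 and 11.98 FPKM. SMIM11, AAMDC, DERPC and EVA1B were likewise highest in replicate 1. SVIP was highest in replicate 3 and lowest in replicate 2. KIF18A, a mitotic kinesin, VPS13A, a lipid transfer protein, and ABCB5, a transporter, were highest in replicate 3 and lowest in replicate 1, with KIF18A at 8.98, 12.3 and 13.6 FPKM.

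Small differences between the libraries followed transcript composition. Of the 12 most variable genes, replicate 1 was highest in 8 and lowest in 3, and it was the highest library for 26 of the 30 most abundant genes. Over 6413 genes with a transcript in GENCODE 29, the difference of replicate 1 from the mean of the other libraries on the log2(FPKM + 1) scale had a Spearman correlation of 0.678 with transcript GC content and -0.387 with transcript length. For replicate 2 these were -0.621 and 0.263, and for replicate 3 they were -0.27 and 0.252. In the fifth of genes with the lowest GC content (30.2% to 41.6%) the median difference of replicate 1 was -0.12 on the log2 scale, and in the fifth with the highest (58.6% to 74.1%) it was 0.10. For replicate 2 the medians were 0.06 and -0.09. Each library is set against the other 2 here, so the 3 values of a gene are not independent, and whether GC content or length plays a part in the spread of any named gene was not tested.

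**Figure D4:**
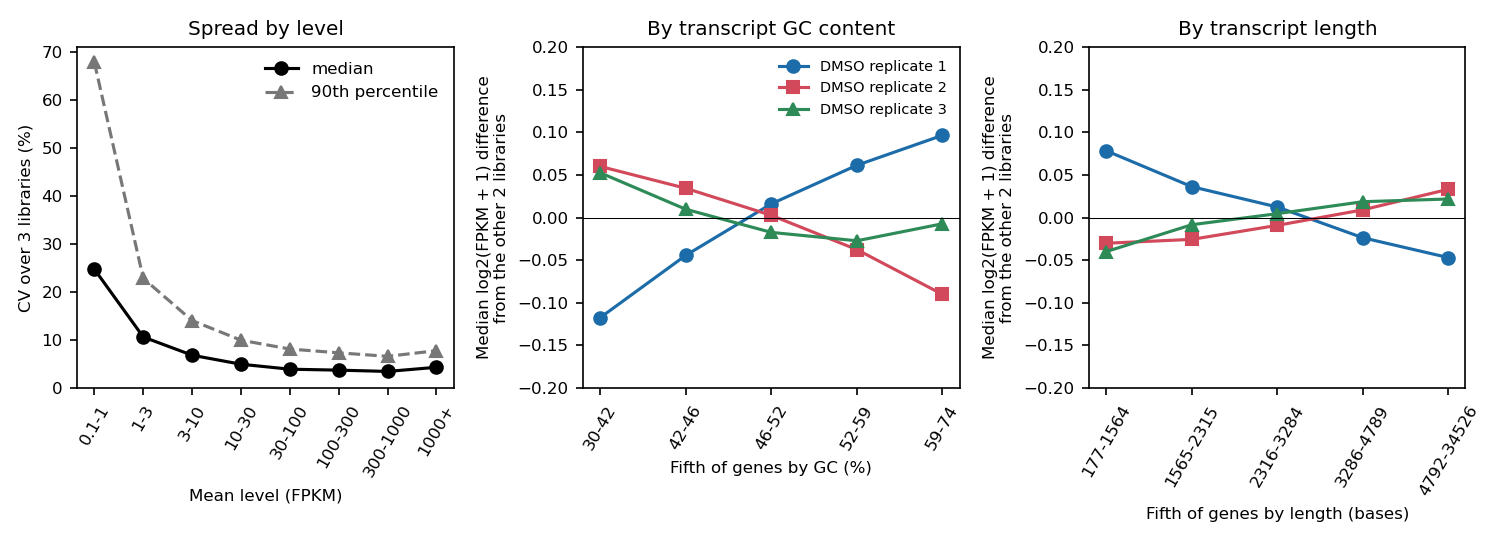
Left, CV over the 3 DMSO libraries (%) by mean level in FPKM, as the median and 90th percentile of the genes in each range. Middle and right, the median difference of each library from the other 2 on the log2(FPKM + 1) scale in 5 groups of 6413 genes by transcript GC content (%) and by transcript length (bases), where replicate 1 runs upwards with GC content, between -0.12 and 0.10, and downwards with length.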

How the data were processed

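RNA of ARPE-19 cells with DMSO was read from the deposited table, whose columns hold FPKM per gene to 2 decimals, per the file headers. Columns headed mock 1 to 3 were read as DMSO replicates 1 to 3. Bowtie2, RSEM 1.3.1, DESeq2 1.4.5 and the build GRCh38.p13 are named, per the submitters' processing notes, without a role for each. Read totals, strand setting and RNA selection are not given. FPKM depends on the mapped total, so a few abundant genes shift all others. Entries without a gene ID (19 of 17964) were left out. No 2 libraries were identical (0 pairs).

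Entrez IDs were matched to RefSeq symbols (17881 of 17945). Transcript length, GC content, overlaps and windows of 50 bases shared with other genes came from the principal transcript in GENCODE 29 (17706 genes). Promoters came from RefSeq, GRCh38.p14, 1 per gene, the one nearest to that transcript's start.

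Means, SDs, shares and counts were computed with Python 3.11.15, pandas 2.3.3 and numpy 2.4.6, drawn with matplotlib 3.10.9, and checked on simulated data. With 1 group there was no test and no p-value. The members, the 18 lineage lists and the 74 families were chosen with earlier results of these data known, and the families defined by symbol stem (such as olfactory receptors) were set after the table was seen. Named genes were the 30 highest means, at most the 6 highest expressed members and members at 0 of each list, the leading and contrasted members of families, and the 12 highest CVs from a mean of 10 FPKM. Other low or expressed members (RPE65, RGR, RLBP1, LRAT, TYR, DCT, MERTK, SERPINF1, SLC16A8, EPCAM, COL1A1 and the like) and the class leaders outside the first 30 were named after their values were seen. A few genes met this rule but are left unreported. Alternatives were other expression thresholds, a scaling to TPM, leaving out each library, other family and spread minimums, a pseudocount of 0.1, no ribosomal protein genes, and quartiles in place of level classes.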

Additional observations from a re-analysis of the deposited data

How the results depend on the processing

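Of the alternatives run on the summary values, 34 left them within 1.5 times or 1 SD of the value given, and 2 moved a value. Without ribosomal protein genes the 10 most abundant genes took 11.1% of the summed FPKM, against 9.46% with them. Leaving out each library in turn gave 11377 to 11415 expressed genes, 2532 to 2604 genes at 0, 95 to 97 expressed members of all lineage lists (95 with 3 libraries), 67 or 68 families with a separate leader, and 19 with a leader of at least 90% each time. The median CV, 4.48% with 3 libraries, was 2.75% without replicate 1, 3.98% without replicate 2 and 4.36% without replicate 3. A CV over 2 libraries is not directly comparable with that over 3, so these are best set against each other. The 12 most variable genes depended on the libraries and the minimum: 2 remained without replicate 1, 7 without replicate 2 and 7 without replicate 3, 1 at a minimum mean of 50 FPKM and 0 at 1 FPKM. Expressed counts still changed with the threshold within that margin of 1.5 times. At 5 FPKM, 8536 genes were expressed, and at 0.5 FPKM 11917, against 11335. All lineage lists had 74 expressed members at 5 FPKM and 109 at 0.5 FPKM, against 95. The 5 pigment epithelium lists had 41 at 5 FPKM and 59 at 0.5 FPKM, against 51. The 8 other cell type lists moved beyond the margin, to 7 at 5 FPKM, against 11. ACTC1 made the muscle list 1 of 13 under 0.5 FPKM or a mean of 1 FPKM. Depth is unknown, so a gene listed at 0 is not shown to be off. No paired analysis was possible because there is only 1 group.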

Other observations

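Expressed genes were spread over all chromosomes reported. The share of genes read that were expressed was lowest on chromosome X, with 382 of 706 genes (54.1%), and highest on chromosome 14 (69.4%). Chromosome 19 was next to X, with 771 of 1320 genes (58.4%). These shares are counts of genes at 1 FPKM or more in all 3 libraries, beside 63.2% over all genes.

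Several abundant genes lay outside every list. RARRES2, the precursor of the chemoattractant chemerin and a retinoid-responsive gene, had 1895, 1618 and 1709.9 FPKM. MT2A, a zinc-binding metallothionein, had 1606, 1359 and 1322 FPKM, and replicate 1 was the highest for both. Both were named after their values were seen.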
